A study of Mus musculus with 3 samples.

Results

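The genes described here are the p53 gene, 4 of its transcriptional targets that are not themselves CDK inhibitors, and 5 genes of cyclin-dependent kinase (CDK) inhibitors. They are Trp53, Mdm2, Ccng1, Gadd45a, Btg2, Cdkn1a, Cdkn1b, Cdkn2a, Cdkn2b and Cdkn2c, 10 genes beside 19057 genes with a named probe in the series. These 10 genes and the lists set beside them below were taken by gene symbol, with earlier results of these data known. For 9 of the 10 genes the platform annotation pairs 1 or more probes with the gene, 22 probes in all. No probe is paired with Trp53 in that annotation, so p53 mRNA is not analysed here.

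Intensities came from Illumina mouse whole-genome bead arrays hybridised with total RNA of LLC/luc cells, the Lewis lung carcinoma line of C57BL/6 mice carrying luciferase. The LLC/luc BM 1st cells (in vivo selection, generation 1) were grown out of bone lesions of a C57BL/6 mouse injected with parental LLC/luc cells through the left ventricle. The LLC/luc BM 2nd cells (generation 2) were grown out of a different mouse injected with BM 1st cells, and both are set against the parental line (P), to find what accompanied the selection for growth in bone. Each group was 1 cultured line on 1 array, and all 3 lines were kept in DMEM with fetal bovine serum. Because the sub-lines were started from whole bone marrow cultures, they could also have held host cells. With no replicate, no difference has a replicate check and no p-value can be given. In addition, fewer cells with a transcript and less of it per cell cannot be told apart in such bulk RNA.

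The p53 protein is a transcription factor that accumulates after DNA damage and other stresses and switches on genes that halt the cell cycle, repair DNA or start apoptosis. One of its targets, Mdm2, encodes the ubiquitin ligase that marks p53 for degradation, so that the pathway limits itself. CDK inhibitors bind the kinases that drive the cell cycle: the CIP/KIP proteins p21 (Cdkn1a) and p27 (Cdkn1b) bind cyclin-CDK complexes, and the INK4 proteins p16 (Cdkn2a), p15 (Cdkn2b) and p18 (Cdkn2c) bind CDK4 and CDK6. Cdkn2a also encodes ARF, an inhibitor of MDM2, from another reading frame.

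The values are linear intensities from which background had not been subtracted, so ratios of dim genes understate the difference in RNA. A gene was read from its brightest probe, the one with the highest mean log2 intensity over the arrays. Background was the 95th percentile of the intensities of 1503 odorant and pheromone receptor probes, 109 (P), 110 (BM 1st) and 107 (BM 2nd). Genes that exceeded background in either line of a pair were compared, and called higher or lower where the log2 ratio of intensities passed 1 or -1. Over all genes compared, 1.83% were called higher and 1.53% lower in BM 2nd against P, 2.04% higher and 1.79% lower in BM 1st against P, and 3.01% higher and 1.78% lower in BM 2nd against BM 1st. Log2 ratios of the receptor probes, which stand for noise near background, had an SD of 0.12 in each comparison, and the largest was 0.51 in size. They do not measure noise at the intensities of bright genes, for which they serve below as a scale only. Of the epithelial markers Krt8 and Krt18 were well above background in every line, whereas Krt19, Epcam and Cldn4 were not above it in any. Of 13 leukocyte markers 2 (P), 8 (BM 1st) and 5 (BM 2nd) were above background, with summed intensities of 1259, 2833 and 1706. In BM 1st/P 3 of them were called higher with P not above background, the myeloid lysozyme gene Lyz2 by at least 9.84-fold (1078 in BM 1st cells), Laptm5 by at least 3.36-fold and Fcer1g by at least 2.33-fold. Lyz2 and Laptm5 were also called higher in BM 2nd/P, by at least 3.33-fold and 1.68-fold. Ptprc, Cd52 and Adgre1 were above background in BM 1st cells alone, while Itgam, Tyrobp, S100a8, S100a9 and Cd3e were not above it on any array. Of 14 markers of fibroblasts and marrow stroma 9, 9 and 10 were above background in P, BM 1st and BM 2nd cells, and their summed intensities were 8279, 13953 and 23469. The rise was not shared by the whole list. In BM 2nd/P 5 of 11 compared were called higher (Lum, Dpt, Dcn, Col1a1 and Pdgfra) and none lower. In BM 1st/P 4 of 10 were called higher and 1 lower, Fbln1. Vcam1 read 4277, 2836 and 4299, and Pdgfrb, Thy1 and Postn were not above background on any array. The part of such cells in the values below was not tested.

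Of the 9 measured genes, 5 were above background in all 3 lines, namely Cdkn1a, Cdkn2c, Mdm2, Ccng1 and Gadd45a. Cdkn1b was above it in P and BM 2nd cells, Cdkn2a in BM 1st cells, and Cdkn2b and Btg2 in none. Against P, 1 of 6 members compared was called higher in BM 2nd cells (Cdkn2c) and 1 lower (Gadd45a), beside the 1.83% and 1.53% of all genes. Against P, none of 7 members was called in BM 1st cells, beside 2.04% and 1.79% of all genes. Against BM 1st cells, 1 of 7 was called higher in BM 2nd cells (Cdkn2c) and 2 lower (Gadd45a and Mdm2), beside 3.01% and 1.78%. The comparisons share arrays in pairs and are not independent. The median log2 ratio of the members compared was -0.38 in BM 2nd/P, 0.21 in BM 1st/P and -0.16 in BM 2nd/BM 1st, beside medians of 0.0071, -0.0079 and -0.012 over all genes. These medians depend on which dim members enter: without a background filter that of BM 2nd/P was -0.08, and among members above background on both arrays that of BM 2nd/BM 1st was -0.89. So few genes were called that these counts describe the named genes and not the group.

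**Figure D1:**
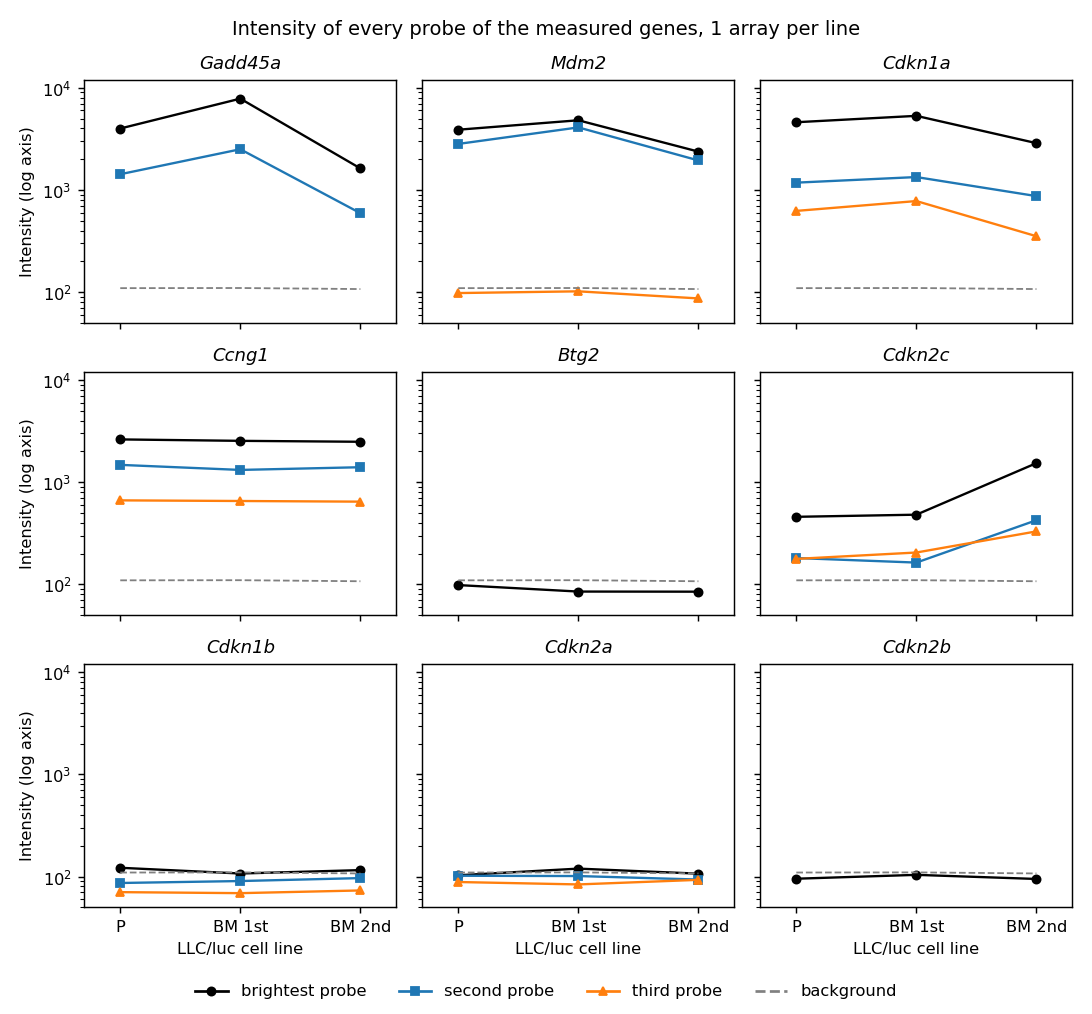
Intensity (vertical log axis) of every probe of the 9 measured genes in LLC/luc P, BM 1st and BM 2nd cells, 1 array per line, with the background of each array dashed. Gadd45a peaks in BM 1st cells at 7837 on its brightest probe and is lowest in BM 2nd cells at 1627, Cdkn2c is highest in BM 2nd cells at 1536, Ccng1 is nearly level, and Btg2, Cdkn1b, Cdkn2a and Cdkn2b lie at background.

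Gadd45a, which encodes a growth arrest protein that binds PCNA and is induced by p53 and by other stress pathways, differed more between the lines than any other member. On the brightest probe P cells read 3997, BM 1st cells 7837 and BM 2nd cells 1627. The BM 1st cells were thus the highest and the BM 2nd cells the lowest, on either side of the parental line. Against P the BM 2nd value was 2.46-fold lower, a log2 ratio of -1.30, which ranked 73 from the bottom of the 10578 genes compared. Against BM 1st cells it was 4.82-fold lower, a log2 ratio of -2.27, which ranked 5 from the bottom of 10558 genes. In BM 1st cells the intensity was 1.96 times that of P, a log2 ratio of 0.97, just inside the threshold. The other Gadd45a probe, dimmer at 1427, 2506 and 593 in P, BM 1st and BM 2nd cells, gave log2 ratios of -1.27 for BM 2nd/P, 0.81 for BM 1st/P and -2.08 for BM 2nd/BM 1st. Both probes therefore put the 3 lines in the same order.

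Mdm2 had the same order of lines over a narrower range. Its brightest probe read 3891 (P), 4813 (BM 1st) and 2375 (BM 2nd). The BM 2nd cells were 2.03-fold below the BM 1st cells, a log2 ratio of -1.02 that only just passed the threshold, and their log2 ratio to P was -0.71, which did not. The BM 1st/P ratio of 0.31 was within the threshold as well and no larger than the largest receptor probe differences. The second Mdm2 probe, at 2824, 4098 and 1946, gave -0.54 for BM 2nd/P, 0.54 for BM 1st/P and -1.07 for BM 2nd/BM 1st. The third probe did not exceed background, at 98.0, 102 and 86.8, and when it was averaged with the others the BM 2nd/BM 1st ratio was -0.77 and the call was lost.

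Cdkn1a, whose product p21 is the CDK inhibitor most directly under p53 control, followed the same order without passing the threshold on its brightest probe. It had intensities of 4605 (P), 5317 (BM 1st) and 2874 (BM 2nd). The BM 2nd cells again had the lowest value, with a log2 ratio of -0.68 to P and of -0.89 to BM 1st cells, and the BM 1st/P ratio of 0.21 was within 2 SD of those of the receptor probes. In BM 2nd/P, 4.27% of all genes compared had a lower ratio, and in BM 2nd/BM 1st 2.54%. The second probe, at 1180, 1339 and 871, gave -0.44 for BM 2nd/P and -0.62 for BM 2nd/BM 1st. The third, at 624, 779 and 353, gave -0.82 and -1.14, so that the dimmest of the 3 probes alone was past the threshold, in BM 2nd/BM 1st. All 3 probes were highest in BM 1st and lowest in BM 2nd cells.

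Ccng1, which encodes cyclin G1, another p53 target, was bright and nearly level. Its brightest probe read 2622 (P), 2539 (BM 1st) and 2486 (BM 2nd), a log2 ratio of -0.08 for BM 2nd/P, -0.05 for BM 1st/P and -0.03 for BM 2nd/BM 1st. The other 2 probes gave log2 ratios between -0.16 and 0.09 over the 3 comparisons. These differences were within 2 SD of those of the receptor probes, which are far dimmer and do not measure the noise of so bright a gene. Btg2, an antiproliferative p53 target, stayed below background in P (98.4), BM 1st (85.0) and BM 2nd cells (84.8) on its single probe, so no ratio is reported for it.

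**Figure D2:**
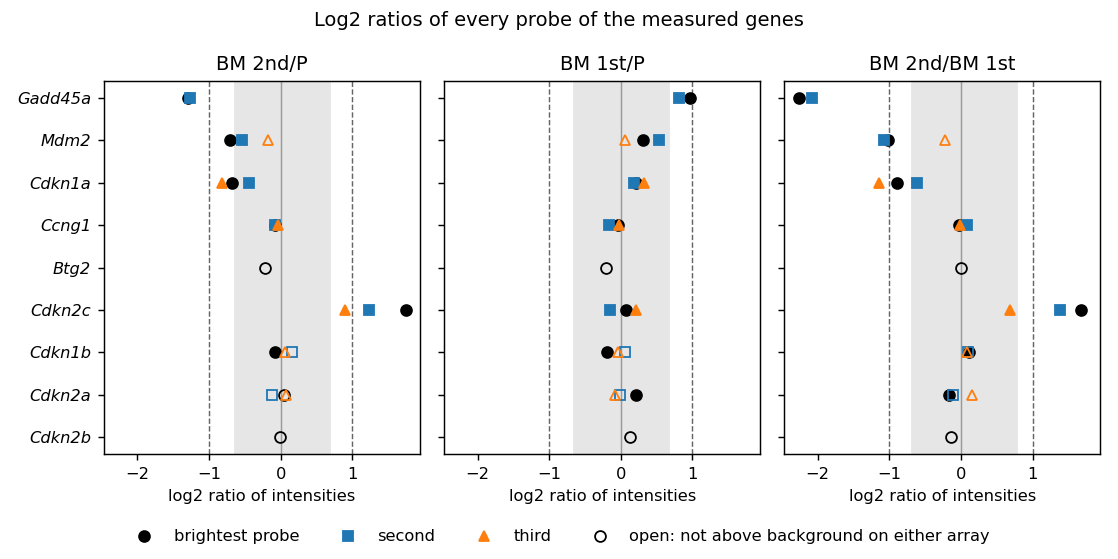
Log2 ratio of intensities (horizontal axis) for every probe of the 9 measured genes in BM 2nd/P, BM 1st/P and BM 2nd/BM 1st, 1 array per line, with open symbols for probes not above background on either array. Dashed lines mark 1 and -1 and the grey band holds the middle of all genes compared, between the 5th and 95th percentiles; the Gadd45a probes lie left of -1 in BM 2nd/P at -1.30 and -1.27, and the Cdkn2c probes lie right of the band there, at 0.89, 1.23 and 1.75.

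The promoters of these targets are shown because Gadd45a, Mdm2 and Cdkn1a had the same order of lines while Ccng1 stayed level, and all 4 hold a p53 decamer near an annotated start. A promoter here is the RefSeq window of GRCm38.p6 from 250 bases before to 50 bases after a gene's start. The p53 decamer is the consensus of 10 bases that p53 binds as tandem copies, and it reads the same on both strands. It was found in 8.36% of all 32851 windows and in 5 of the 13 windows of members, or by gene in 9.55% of 27025 genes and in 5 of the 10 members. It was present in Gadd45a, Mdm2, Ccng1, Cdkn1a and Trp53 and absent from the windows of Btg2, Cdkn1b, Cdkn2a, Cdkn2b and Cdkn2c. A match describes these letters only and was not tested for binding. The windows of Gadd45a, Mdm2 and Ccng1 each hold 1 decamer and not a tandem pair, and bases outside the windows were not searched. The sequences follow 5′ to 3′ on the strand of the gene, with the decamers in capitals. In Gadd45a (chr6:67037358-67037657, minus strand) the decamer begins 40 bases before the start, in Mdm2 (chr10:117710709-117711008, minus strand) 186 bases before it and in Ccng1 (chr11:40755237-40755536, minus strand) 185 bases before it. Cdkn1a has 2 annotated starts, and the upstream window (chr17:29090729-29091028, plus strand) holds 2 decamers, 73 and 51 bases before its start, whereas the other window holds none.
Gadd45a: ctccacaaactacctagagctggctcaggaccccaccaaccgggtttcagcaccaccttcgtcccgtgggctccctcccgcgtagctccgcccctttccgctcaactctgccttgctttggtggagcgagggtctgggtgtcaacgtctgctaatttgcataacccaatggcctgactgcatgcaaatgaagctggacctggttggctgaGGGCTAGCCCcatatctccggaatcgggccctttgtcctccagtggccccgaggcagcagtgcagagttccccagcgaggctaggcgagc
Mdm2: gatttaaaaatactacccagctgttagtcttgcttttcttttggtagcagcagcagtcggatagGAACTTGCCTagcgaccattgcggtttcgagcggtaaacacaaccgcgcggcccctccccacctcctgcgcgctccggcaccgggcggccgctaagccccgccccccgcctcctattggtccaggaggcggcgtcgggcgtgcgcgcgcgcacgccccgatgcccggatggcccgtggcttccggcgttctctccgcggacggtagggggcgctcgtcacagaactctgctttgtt
Cdkn1a: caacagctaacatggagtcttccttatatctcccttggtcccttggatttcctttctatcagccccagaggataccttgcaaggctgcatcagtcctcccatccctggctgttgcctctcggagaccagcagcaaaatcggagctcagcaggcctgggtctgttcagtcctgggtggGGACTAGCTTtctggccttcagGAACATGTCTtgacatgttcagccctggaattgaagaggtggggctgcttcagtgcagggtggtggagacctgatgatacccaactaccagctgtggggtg
Ccng1: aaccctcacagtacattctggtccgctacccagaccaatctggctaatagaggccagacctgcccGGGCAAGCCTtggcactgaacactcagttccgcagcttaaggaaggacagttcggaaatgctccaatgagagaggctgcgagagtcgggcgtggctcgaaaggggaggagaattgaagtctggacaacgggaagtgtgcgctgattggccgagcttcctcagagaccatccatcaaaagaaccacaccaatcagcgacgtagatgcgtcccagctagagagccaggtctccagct
These 4 were chosen for display with their values known, and no relation between the decamer and the intensities was tested.

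Of the CDK inhibitors of the INK4 family, Cdkn2c was higher in BM 2nd cells. Its product p18 holds CDK4 and CDK6 inactive in G1 phase. The brightest probe had intensities of 458 (P), 481 (BM 1st) and 1536 (BM 2nd). The P and BM 1st values were nearly equal, with a log2 ratio of 0.07, and the BM 2nd value was 3.35-fold higher than P, a log2 ratio of 1.75, and 3.20-fold higher than BM 1st, one of 1.68. In BM 2nd/P the ratio ranked 55 from the top of 10578 genes. The second probe, at 181, 163 and 424, gave 1.23 for BM 2nd/P and 1.38 for BM 2nd/BM 1st. The third, at 178, 205 and 330, gave 0.89 and 0.69, below the threshold. All 3 probes were highest in BM 2nd cells, and the dimmer ones, closer to background, gave smaller ratios.

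Cdkn2a and Cdkn2b, which are neighbours in the genome, were at background. Cdkn2b had intensities of 95.2, 104 and 94.7 in P, BM 1st and BM 2nd cells on its single probe. The brightest of the 3 Cdkn2a probes read 103, 120 and 107, above background in BM 1st cells alone, where it exceeded the floor of P by 1.09-fold or more. The other Cdkn2a probes, between 83.7 and 102, were not above background on any array. A value at background does not show that a gene is silent.

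Of the CIP/KIP family besides Cdkn1a, Cdkn1b, which encodes p27, an inhibitor that accumulates in resting cells, was measured at the edge of detection. Its brightest probe had intensities of 122 (P), 107 (BM 1st) and 116 (BM 2nd), with log2 ratios of -0.08 for BM 2nd/P and 0.11 for BM 2nd/BM 1st. The BM 1st value was not above background, which gives a bound of 1.11-fold between BM 1st and P, within 2 SD of the receptor probes and no call. The other 2 probes, between 68.8 and 96.6, were not above background on any array. Of the CDK inhibitor genes that are not members, Cdkn1c was not above background on any array, and Cdkn2d read 223, 213 and 237. Cdkn3, a phosphatase that acts on CDKs, read 576 (P), 160 (BM 1st) and 872 (BM 2nd), and was called lower in BM 1st/P (log2 ratio -1.85) and higher in BM 2nd/BM 1st (2.45), the opposite order of lines to Cdkn1a.

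A list of 36 other p53 target genes was set beside the members, of which 33 had a probe. In BM 2nd/P, 3 of 29 genes compared were called lower and none higher, beside 1.53% lower and 1.83% higher over all genes. The median log2 ratio of the 29 was -0.13, beside 0.0071 over all genes. Plk3, a stress-response kinase gene, read 2365 (P), 3046 (BM 1st) and 855 (BM 2nd), a log2 ratio of -1.47 for BM 2nd/P. Bbc3, which encodes the pro-apoptotic protein PUMA, read 2039, 1336 and 763, a ratio of -1.42, and Sesn2, an inhibitor of mTORC1 signalling, read 410, 295 and 195, a ratio of -1.08. Plk3 had the order of lines of Gadd45a, whereas Bbc3 and Sesn2 were intermediate in BM 1st cells. The other probes of Bbc3 above background gave -0.47 and -0.54 and that of Sesn2 -0.53, in the same direction but inside the threshold. They were dim, at 184, 176 and 158 in P cells and 133, 121 and 110 in BM 2nd cells. Ratios so near background understate the difference, so these probes neither pass the threshold nor speak against the calls. In BM 1st/P none of 28 was called (median -0.02), beside 2.04% higher and 1.79% lower over all genes. The nearest to the threshold were Apaf1, a gene of the apoptosome, at 0.75 and Sesn1 at -0.73. In BM 2nd/BM 1st 1 of 29 was called lower, Plk3 at -1.83, and none higher (median -0.18), beside 1.78% lower and 3.01% higher over all genes. There Sesn1 had the highest log2 ratio, 0.97, and Zmat3, a well known p53 target, had one of -0.93, both inside the threshold and named after their values were seen. The genes above 0 in BM 2nd/P were 12 of 29, led by Fas, a death receptor gene, at 0.76, so the list did not lie on 1 side.

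**Figure D3:**
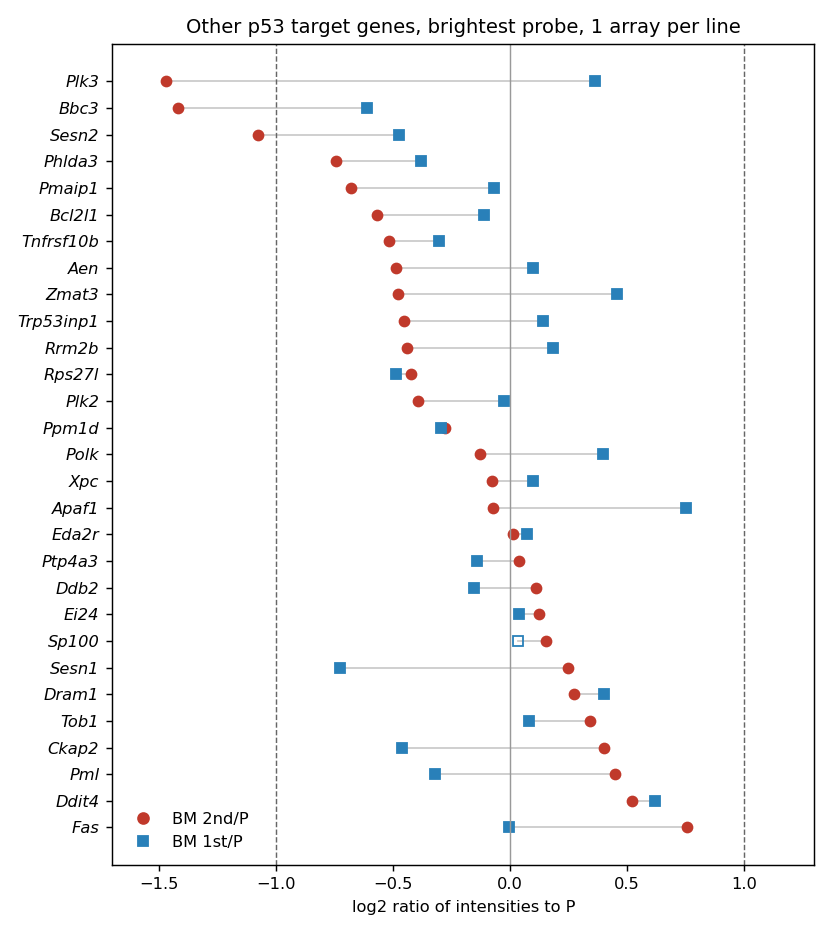
Log2 ratio of intensity to P (horizontal axis) in BM 2nd cells (red circles) and BM 1st cells (blue squares) for the 29 other p53 target genes above background, brightest probe, 1 array per line. Dashed lines mark 1 and -1, open symbols mark a comparison with neither array above background, and both ratios of a gene share the P array; Plk3, Bbc3 and Sesn2 lie left of -1 in BM 2nd cells.

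Among 19 genes of the p53 family and of p53 regulators with a probe, none was called in any of the 3 comparisons. In BM 2nd/P, with 16 compared (median 0.04), Ep300, an acetyltransferase that acts on p53, had a log2 ratio of 0.71 and Atm, the kinase of the DNA damage response, one of 0.64. In BM 1st/P, with 17 compared (median 0.03), Ep300 was at 0.75. In BM 2nd/BM 1st (median -0.03) Atm was at 0.57. The checkpoint kinase gene Chek1 read 124 (P), 91.1 (BM 1st) and 132 (BM 2nd), and as its BM 1st value was not above background only bounds can be given, 1.13-fold between BM 1st and P and 1.20-fold between BM 2nd and BM 1st. Mdm4, the partner of Mdm2, read 127, 155 and 117, close to background, and the p53 relatives Trp63 and Trp73 were not above it on any array; these 3 were named after their values were seen. Of 6 relatives of Gadd45a, Btg2 and Ccng1, Ccng2, the gene of cyclin G2, was called higher in BM 2nd/P at 1.08, and Gadd45b at 1.07. The intensity of Gadd45b in P cells, 108, was not above background, so its rise was 2.07-fold or more. Neither was called in BM 1st/P, where Gadd45g had a log2 ratio of -0.95 and Ccng2 one of 0.56. Gadd45g read 1095, 568 and 1368, lowest in BM 1st cells where Gadd45a was highest, and was called higher in BM 2nd/BM 1st at 1.27.

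The proliferation state of the lines was read from 25 genes of DNA replication and mitosis, of which 24 had a probe and 23 were compared. All 23 had a lower intensity in BM 1st than in P cells and 17 passed the threshold (median log2 ratio -1.29), with Tyms, a nucleotide synthesis gene, at -2.44, the replicative helicase gene Mcm5 at -2.42 and the survival and mitosis gene Birc5 at -2.06. The mitotic kinase gene Aurka had an intensity of 247 in BM 1st and 992 in P cells. In BM 2nd/P 2 were called higher, the thymidine kinase gene Tk1 at 1.20 and Uhrf1, which maintains DNA methylation, at 1.16, and none lower (median 0.35). Neither gene passed with all probes averaged. With only probes above background averaged Uhrf1 still passed and Tk1 did not, and the other Tk1 probe above background in both lines gave 0.52. In BM 2nd/BM 1st 18 were called higher and none lower (median 1.77), with Tk1 at 3.02, Mcm5 at 2.80, Plk1 at 2.77 and Tyms at 2.72. The lines thus had the order BM 1st, P and BM 2nd from low to high in the medians of these markers. The step from P to BM 2nd cells was small, a median log2 ratio of 0.35, and 4 of the 23 markers lay below P. Gadd45a, Mdm2 and Cdkn1a had the reverse order as measured. For Mdm2 and Cdkn1a the BM 1st/P log2 ratios, 0.31 and 0.21, do not settle on which side of P the BM 1st cells lie. These are 3 arrays on which both sets were measured, so the opposite orders are a description with no test, and neither set was shown to act on the other. Cdkn2c did not follow this reversal, since it was highest in BM 2nd cells, where the markers were highest.

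Of the kinases and cyclins that the inhibitors bind, none of 12 was called in BM 2nd/P (median 0.04), where Ccnd2 had a log2 ratio of -0.49 and Ccnd1, which encodes cyclin D1, one of -0.46. The mitotic kinase gene Cdk1 was called lower in BM 1st/P at -1.21 and higher in BM 2nd/BM 1st at 1.12, the only gene called of 10 and of 12 compared (medians -0.38 and 0.30). Cdk4, 1 of the 2 kinases that p18 binds, read 3347 (P), 2270 (BM 1st) and 3443 (BM 2nd) and was within the threshold throughout. Cdk6, the other, read 134, 107 and 111, near background and not above it in BM 1st cells. Both were named after their values were seen. In the Rb and E2F family, which acts below these kinases, no gene was called in any comparison (medians 0.02, 0.08 and -0.07). In BM 2nd/P E2f5 stood at -0.82 and Rbl1 at 0.66, the largest BM 1st/P ratios were 0.57 for E2f1 and 0.45 for Rb1, and in BM 2nd/BM 1st E2f5 was at -0.95 and Rbl1 at 0.93.

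**Figure D4:**
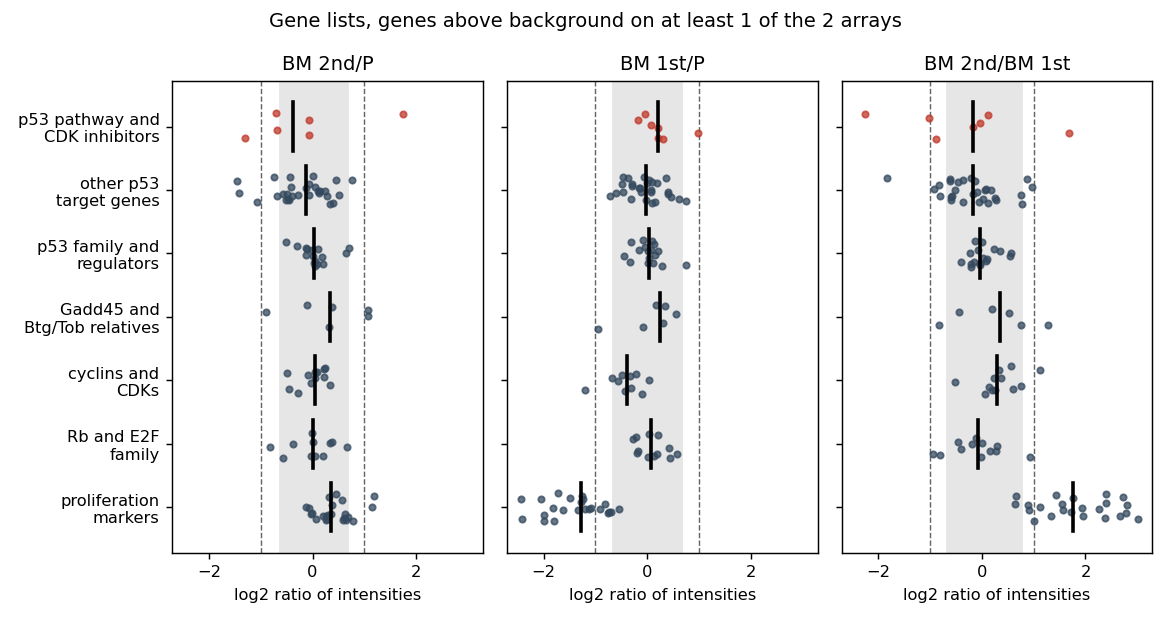
Log2 ratio of intensities (horizontal axis) for the genes above background of 7 lists in BM 2nd/P, BM 1st/P and BM 2nd/BM 1st, 1 point per gene and 1 array per line; black bars are list medians, dashed lines mark 1 and -1, and the grey band runs from the 5th to the 95th percentile of all genes compared. The p53 pathway and CDK inhibitor genes (red) spread from -1.30 to 1.75 in BM 2nd/P, and the proliferation markers have medians of 0.35, -1.29 and 1.77.

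The genes with the most similar pattern were sought for the 2 members of widest range, Gadd45a and Cdkn2c, among 8646 genes above background on all 3 arrays, by the distance between their pairs of log2 BM 1st/P and BM 2nd/P ratios. Nearest to Gadd45a were Csn3, the gene of kappa-casein, with intensities of 721, 1465 and 325 in P, BM 1st and BM 2nd cells (distance 0.15), Mllt11 (0.18) and Pvr, the gene of the poliovirus receptor CD155 (0.46). Their values were highest in BM 1st and lowest in BM 2nd cells like those of Gadd45a. Nearest to Cdkn2c were Dusp1, a MAP kinase phosphatase gene, with intensities of 2193, 2205 and 6964 (distance 0.10), Crip2 (0.18) and Ccn4 (0.19). They had nearly equal values in P and BM 1st cells. With 3 arrays such likeness is a description of 2 ratios per gene.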

How the data were processed

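Deposited values were linear intensities of 45281 probes on 3 arrays, 1 per cell line. The authors processed the intensities in GenomeStudio 2011.1, per the submitters' processing notes; no source used here gives the settings. The sorted deposited intensities of the 3 arrays differed by at most 0.274, so they had been quantile normalized, and the lowest was 60.2, so background had not been subtracted. Probe names were those of the platform annotation, brought up to date by Entrez identifier with the RefSeq gene table. Of them 34885 had 1 gene, 18 several and 10378 none, and only those with 1 gene were named.

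From these values log2 ratios of intensity were taken in numpy 2.4.6 and pandas 2.3.3 under Python 3.11.15. Plots were drawn with matplotlib 3.10.9. The calling step was run on simulated data with changes set well past the threshold and little added noise. Such a run checks the code and does not measure the reliability of calls from single arrays. With 1 array per line no test was run, and precision is limited by the number of arrays. Named beside the members were up to 4 genes of each list past the threshold in a comparison, or the 2 nearest to it where none passed, and the 3 nearest patterns of 2 members. Members, lists and rules were chosen with earlier results of these data known. The choice of probe, the threshold, background subtraction, centring and the filter on dim genes were each varied.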

Additional observations from a re-analysis of the deposited data

Results flagged for a closer look

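Gadd45a, Mdm2 and Cdkn1a lay on opposite sides of P in the bone-derived lines, below it in BM 2nd cells and above it in BM 1st cells, each by more than 1 SD of the receptor probes. For Gadd45a the log2 BM 2nd/P ratio of -1.30 and the BM 1st/P ratio of 0.97 differed by -2.27. For Mdm2 the ratios of -0.71 and 0.31 differed by -1.02, and for Cdkn1a those of -0.68 and 0.21 differed by -0.89. On the brightest probe the BM 1st/P ratio of Cdkn1a was within 2 SD of the receptor probes. That of Mdm2 was below their largest, 0.48. The second Mdm2 probe gave 0.54 and the other Cdkn1a probes 0.18 and 0.32, also above P, while the third Mdm2 probe was not above background. With 1 array per line, the side of P on which BM 1st cells lie is not settled for these 2 genes. The differences were not tested, since each line had 1 array, and both ratios of a gene share the P array. The cause was not tested.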

How the results depend on the processing

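No called log2 ratio of a member changed sign under the 8 alternatives. The 3 that alter the background filter, and the threshold of 0.5, cannot move the ratio of a brightest probe. Those could therefore not have changed a sign. Nor could averaging, as all probes of the called members went the same way in the comparisons where they were called. Subtracting a nearly equal background from each array could not either. The unchanged signs are thus no check of the calls. At a threshold of 0.5 the members called lower in BM 2nd/P were 3 in place of 1 (Cdkn1a and Mdm2 joined Gadd45a), and 1 was called higher in BM 1st/P, Gadd45a, in place of 0. In BM 2nd/BM 1st Cdkn1a joined those called lower, 3 in place of 2. Over all genes at 0.5, 8.37% were lower in BM 2nd/P, 8.45% higher in BM 1st/P and 9.46% lower in BM 2nd/BM 1st. With all probes of a gene averaged 1 member was called lower in BM 2nd/BM 1st in place of 2, as the dim Mdm2 probe entered the mean. The other p53 targets called lower in BM 2nd/P were 1 with probes averaged in either way, 5 with background subtracted and 7 at 0.5, in place of 3. In BM 2nd/BM 1st 4 were called lower and 3 higher with background subtracted, and 10 lower and 4 higher at 0.5, in place of 1 and 0. Beside these, 5.89% of all genes were lower and 7.66% higher in BM 2nd/BM 1st with background subtracted, and 9.46% and 10.9% at 0.5. In BM 2nd/P 4.83% of all genes were lower with background subtracted and 8.37% at 0.5. The proliferation markers called lower in BM 1st/P were 10 in place of 17 with all probes averaged, and those called higher in BM 2nd/P were 0 with all probes averaged, 1 (Uhrf1) with probes above background averaged and 9 at 0.5, in place of 2. The members' median in BM 2nd/BM 1st, -0.16, became -0.89 with the filter on both arrays or background at the 99th percentile, -0.83 with background subtracted and -0.77 with all probes averaged, and that in BM 2nd/P, -0.38, became -0.08 with no filter. Over all genes, the counts higher and lower in BM 2nd/P of 194 and 162 became 620 and 511 with background subtracted, 955 and 885 at 0.5, and 109 and 101 with all probes averaged. In BM 1st/P 212 and 186 became 602 and 569, 877 and 911, and 137 and 108, and in BM 2nd/BM 1st 318 and 188 became 809 and 622, 1148 and 999, and 192 and 126. Centring moved all ratios by at most 0.0050, too little to change the sign of a call. No paired analysis was possible because each group has 1 sample. Btg2 and Cdkn2b, at background on every array, could not be compared, and Cdkn1b and Cdkn2a allow only bounds where 1 of the 2 arrays was not above it.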

Other observations

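The next protein-coding gene beside Cdkn2a and Cdkn2b on either side in the RefSeq gene order of GRCm38.p6 was looked up after their values were seen. Mtap, which encodes a methionine salvage enzyme, read 1761 (P), 2195 (BM 1st) and 1745 (BM 2nd), well above background. Dmrta1, on the far side of Cdkn2b, read 86.0, 87.7 and 93.5 and was not above background on any array.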
